A study of Mus musculus with 95 samples.

Results

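Pioglitazone (PIO) was compared with no drug in the kidney cortex of diabetic db/db mice, in 6 libraries of each group, which are 12 of the 95 RNA-Seq libraries of the study. The libraries were chosen by their labels alone, as the cortex libraries of db/db mice and the cortex libraries of db/db mice labelled with pioglitazone. All animals were male mice of the BKS.Cg-m +/+ Leprdb/J strain, studied at 16 weeks of age. The db/db mice carry the Leprdb mutation on both copies of the leptin receptor gene, overeat and become obese and diabetic, and so serve as a model of type 2 diabetes. The treated animals received 15 mg/kg PIO in the chow for 11 weeks, from 5 weeks of age, and the untreated animals the chow without the drug. Cortex of non-diabetic db/+ controls without PIO (6 libraries) and with PIO (6 libraries) was used to ask whether the same genes responded without diabetes. These libraries were also part of the fit for db/db mice, where they entered the filter and the estimate of the spread. The methods describe separate mice in each group, while the labels tie no library to an animal, so that p-values measure the spread between these libraries. RNA of whole cortex was sequenced, and tubules, glomeruli, vessels and resident immune cells were measured together.

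PIO is a thiazolidinedione that binds and activates PPARG, a nuclear receptor that pairs with an RXR partner on DNA and turns on genes of fat storage and insulin response, chiefly in adipose tissue. In the kidney PPARG is best known from the collecting duct, vessels and glomeruli, and thiazolidinediones are known for sodium and water retention. In diabetic kidney disease, TGF-beta signalling, matrix deposition and macrophage entry are textbook features of the cortex.

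The deposited values were FPKM, fragments counted per length of transcript and scaled to the mapped fragments of the library, for 25407 genes. The sum of FPKM lay between 210094 and 246975 in 5 db/db libraries and reached 601310 in db/db replicate 6. In db/db PIO it lay between 198461 and 243158 except for replicate 3 (314578), which also had the most genes above 0 (9533, against 7567 to 7974 in the other PIO libraries). Neither the FPKM sum (exact permutation test, two-sided p = 0.613) nor the number of genes above 0 (p = 0.859) differed between the groups beyond their spread. Many exact zeros stood in genes that every cell uses. Gapdh was listed at 0 in 11 of the 12 libraries and Actb in 4, and the proximal tubule receptor Lrp2 had no value in any of the 12. Zeros were for this reason handled as missing, and testing a gene took 3 or more values per group. The tissue label was checked against defining genes. The androgen-regulated proximal tubule gene Kap had values in all 12 libraries, between 4408 and 54832 FPKM, while only 4 of 39 proximal tubule markers could be tested and 23 were listed at 0 in all 12.

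Of 3890 genes tested, 126 passed an adjusted p of 0.05 (3.24%), by limma on log2(FPKM + 1) with Benjamini-Hochberg adjustment. With PIO 22 genes rose (0.566% of those tested) and 104 fell (2.67%). The changes were moderate. Their size ran from 0.26 to 1.5 on the log2(FPKM + 1) scale with a median of 0.62, and 15 genes changed by 1 or more. This scale understates the change of low genes, and 72 of the 126 genes had a mean under 5 FPKM in db/db. Between the groups the values did not overlap for 95 of the 126 genes (18 that rose and 77 that fell), where 389 of all 3890 genes tested did not overlap (10%). Only 40 of the 126 had a value in all 12 libraries.

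**Figure D1:**
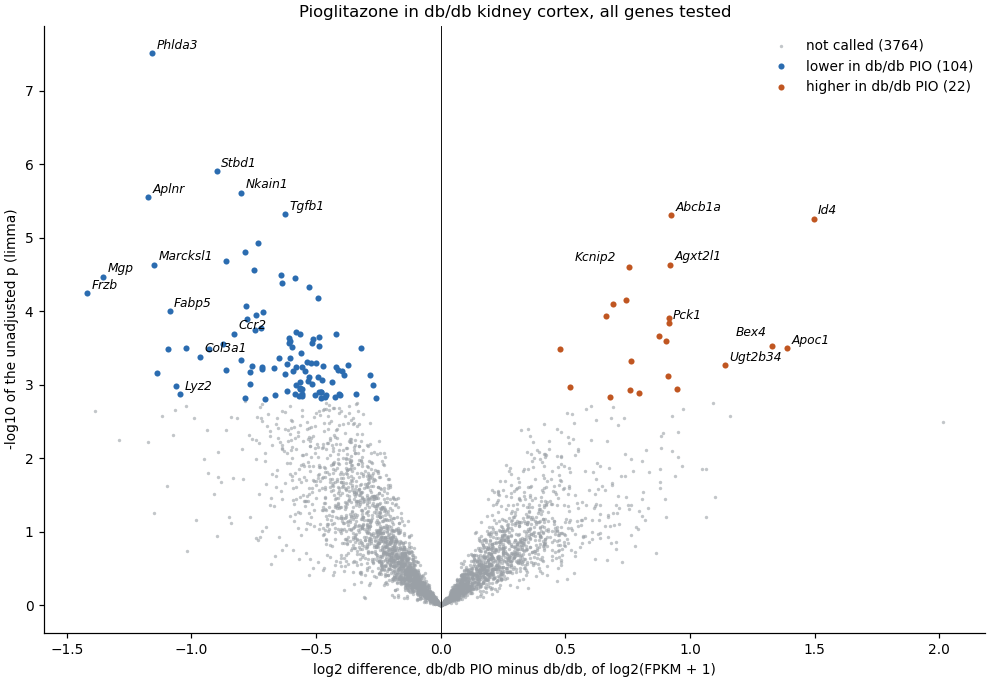
Difference of db/db PIO from db/db cortex on the log2(FPKM + 1) scale (horizontal axis) against -log10 of the unadjusted p (vertical axis), 1 point for each of the 3890 genes tested. Coloured points are the 22 genes that rose and the 104 that fell, and falls outnumber rises.

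The balance between rises and falls depended on the scaling of the libraries. As deposited, 17.5% of the called genes rose. After median-of-ratios rescaling 85 genes were called and 35.3% of them rose, and after quantile normalization 72 were called and 30.6% rose. All 126 genes kept their sign under both, and 75 and 55 of them stayed called. The median difference of all genes tested was -0.045 as deposited, with 2231 of the 3890 below 0. The counts and medians of gene lists that follow stand beside these values and beside the 2.67% that fell and the 0.566% that rose. At an unadjusted p of 0.05 (limma), 868 of the 3890 genes passed. List values without db/db replicate 6 stand beside that fit's own, a median of -0.101 with 2428 of 3495 genes below 0. In it 25 of all genes rose and 164 fell.

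The gene with the largest FPKM among those that rose was Pck1, the cytosolic phosphoenolpyruvate carboxykinase that limits gluconeogenesis and a PPARG target in fat cells (mm9, chromosome 2, 172978549 to 172984774). Pck1 measured 2038, 1940, 2372 and 2109 FPKM in the 4 db/db libraries with a value, and 3241 at the lowest, 3844 at the median and 5051 at the highest in the 6 db/db PIO libraries. All PIO libraries lay above all db/db libraries. The mean rose from 2115 ± 185 (SD, n = 4) to 4016 ± 655 (SD, n = 6), 1.90 times, with a log2 difference of 0.91 ± 0.17 (SE, limma, adjusted p = 0.0184). Pck1 stayed called when any 1 of the 12 libraries was left out.

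Id4, a helix-loop-helix protein without a DNA-binding region that blocks its partners and responds to BMP signals, showed the largest difference of the genes that rose (mm9, chromosome 13, 48356796 to 48359405). In db/db it ran from 5.30 through a median of 7.56 to 13.4 FPKM, and in db/db PIO from 14.4 through 24.8 to 32.9. The lowest PIO library stood just above the highest db/db library, so the groups did not overlap. The means were 8.35 ± 3.26 and 24.9 ± 6.49 (SD, n = 6 each), a 2.98-fold rise (log2 difference 1.5 ± 0.26 SE, adjusted p = 0.00309 by limma).

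Promoters of 4 genes on which the results turn are shown here, to let a reader see what lies at the starts of the rises with the highest FPKM and the largest difference (Pck1, Id4) and of the falls of the cytokine and the p53 target described further on (Tgfb1, Phlda3). Each runs 5′ to 3′ on the plus strand, from 250 bases before to 50 bases from the start on, in the RefSeq annotation of GRCm38.p6, a build later than that of the FPKM values. They lie at chr2:173152823-173153122 for Pck1, chr13:48260866-48261165 for Id4, chr7:25686752-25687051 for Tgfb1 and chr1:135765835-135766134 for Phlda3. Capitals mark matches on either strand to TNACGTCA, a cAMP response element, and to GGGCGG, the GC box.
Pck1: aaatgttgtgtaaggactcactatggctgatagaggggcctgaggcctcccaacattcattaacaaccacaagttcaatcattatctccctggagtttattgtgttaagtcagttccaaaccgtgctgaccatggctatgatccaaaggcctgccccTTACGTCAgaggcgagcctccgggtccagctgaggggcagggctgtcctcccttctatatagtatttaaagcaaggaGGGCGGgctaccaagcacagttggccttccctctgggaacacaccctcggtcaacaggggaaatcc
Id4: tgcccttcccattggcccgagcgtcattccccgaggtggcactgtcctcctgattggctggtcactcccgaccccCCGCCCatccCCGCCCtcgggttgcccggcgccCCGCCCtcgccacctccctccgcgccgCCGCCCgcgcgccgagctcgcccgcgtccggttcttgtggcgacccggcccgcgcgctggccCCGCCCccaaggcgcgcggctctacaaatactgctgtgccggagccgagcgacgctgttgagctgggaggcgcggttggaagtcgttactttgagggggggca
Tgfb1: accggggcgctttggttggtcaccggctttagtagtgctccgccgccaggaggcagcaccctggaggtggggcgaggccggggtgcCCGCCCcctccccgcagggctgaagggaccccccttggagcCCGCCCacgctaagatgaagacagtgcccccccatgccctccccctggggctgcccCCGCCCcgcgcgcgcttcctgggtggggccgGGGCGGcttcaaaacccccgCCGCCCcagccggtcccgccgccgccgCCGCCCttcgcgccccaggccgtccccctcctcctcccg
Phlda3: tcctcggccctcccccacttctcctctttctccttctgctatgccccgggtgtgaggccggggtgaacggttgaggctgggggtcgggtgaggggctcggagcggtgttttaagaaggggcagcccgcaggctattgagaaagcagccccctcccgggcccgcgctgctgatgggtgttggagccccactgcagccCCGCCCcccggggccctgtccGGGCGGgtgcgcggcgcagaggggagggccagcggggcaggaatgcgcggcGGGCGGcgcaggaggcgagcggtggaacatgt

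Pck1 held 1 cAMP response element, which starts 93 bases before the transcript start, and 1 GC box. GC boxes numbered 5 in Id4, 6 in Tgfb1 and 3 in Phlda3. The hexamer AGGTCA, of which nuclear receptor sites are built, was in none of these 4 windows. It was found on either strand in 16.26% of all 32851 promoters of this length, in 2 of the 13 promoters of genes that rose and in 12 of the 78 of genes that fell (12 of the 22 and 69 of the 104 genes had a promoter in the table). The hexamer repeated with 1 base between, the order that PPAR and RXR pairs bind, was in 13 of all promoters (0.04%) and in none of the genes called. A GC box was in 35.66% of all promoters, in 7 of 13 for genes that rose and in 51 of 78 for genes that fell. TNACGTCA was in 2.93% of all promoters, in 2 of 13 and in 2 of 78. These matches describe letters within a short window and say nothing of binding.

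The receptor that the drug binds did not pass the test. Pparg measured 0.75, 0.50, 0.67, 0.68 and 1.10 FPKM in 5 db/db libraries and 0.69, 0.72, 0.48 and 0.46 in 4 db/db PIO libraries, with overlapping groups and a log2 difference of -0.13 ± 0.14 (SE, adjusted p = 0.594). Ppara was listed at 0 in all 12 libraries, and Ppard had values in 2 PIO libraries alone (5.13 and 4.47). Such zeros were handled as missing and do not show absence, and the paper reports Ppara expression in kidney cortex. Of 16 PPAR receptors and co-regulators 5 could be tested and none passed (3 at an unadjusted p of 0.05, beside 868 of all 3890 genes), with a list median of 0.623 that came to 0.180 without db/db replicate 6. The co-activator Ppargc1b had a log2 difference of 0.62 (adjusted p = 0.0642) and the partner receptor Rxra of 0.94 (adjusted p = 0.14).

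Among 46 PPAR target genes 6 could be tested, Pck1 alone rose and none fell, and 16 were listed at 0 in all 12 libraries. The list's median was 0.268, and -0.046 without db/db replicate 6. Fabp1, a fatty acid carrier of liver and tubule, ran from 0.43 through 2.41 to 8.25 FPKM in db/db and measured 4.47, 2.50, 3.03, 6.03 and 12.9 in PIO (log2 difference 0.75, adjusted p = 0.223). The lipoprotein lipase Lpl had 37.8, 38.4, 49.7 and, in replicate 6, 7.28 FPKM in db/db against 45.1, 43.0 and 43.5 with PIO (0.67, adjusted p = 0.482). Its difference was 0.07 without replicate 6. Pdk4, which shuts down pyruvate oxidation, ran from 9.29 through 15.4 to 23.8 FPKM in db/db and measured 3.20, 5.17, 5.97, 13.2 and, in replicate 6, 48.5 with PIO (-0.64, adjusted p = 0.415). Without that PIO library it passed (-1.20, adjusted p = 0.0479). The lipid droplet protein Plin5 differed by -0.17 (adjusted p = 0.508) and Txnip, an inhibitor of thioredoxin, by -0.13 (adjusted p = 0.786). The fatty acid transporter Cd36 was listed at 0 in every one of the 12. The adipose targets could hardly be read either. Fabp4, which carries fatty acids in fat cells and small vessels, had values of 251, 200 and 254 FPKM in db/db and of 260 and 248 in 2 PIO libraries, too few to test.

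No gene of lipid synthesis passed, although every tested member had a higher mean log2 value with PIO. All 5 tested genes of fatty acid synthesis and desaturation lay above 0 (median 0.763, 4 at an unadjusted p of 0.05), and all 7 of cholesterol synthesis and uptake (median 0.516, 4 at that p). Of all 3890 genes, 1659 lay above 0 and 868 passed at that p in either direction. Without db/db replicate 6 the medians of the 2 lists were 0.411 and 0.34, with all 5 and all 6 tested genes above 0. The delta-9 desaturase Scd1 had the largest difference. Scd1 measured 9.40, 0.57, 7.24 and 3.49 FPKM in 4 db/db libraries and 5.89 at the lowest, 19.5 at the median and 53.5 at the highest with PIO (log2 difference 2.01 ± 0.60 SE, adjusted p = 0.0676). The groups overlapped and the treated libraries spread widely. Insig1, which holds back sterol synthesis, ran from 10.2 through 18.7 to 21.4 in db/db and measured 23.8, 29.5, 28.3 and 19.8 with PIO (0.53, adjusted p = 0.0599). Without db/db replicate 6, the lowest library for Insig1, it passed (0.39, adjusted p = 0.0429). In gluconeogenesis and glucose handling 8 of 29 genes were tested and Pck1 rose, with a median of 0.333 (0.189 without replicate 6). Foxo1, the insulin-restrained factor that drives Pck1, measured 10.5, 8.80, 9.76 and 3.35 FPKM against 15.4, 15.8 and 14.4 (0.93, adjusted p = 0.0618), and passed without replicate 6 (0.60, adjusted p = 0.0428). Of fatty acid oxidation 1 gene of 31 could be tested.

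Further rises were in carriers, plasma proteins and channels. Apoc1, an apolipoprotein of triglyceride-rich particles, ran from 1.77 through 3.02 to 15.6 FPKM in db/db and from 6.86 through 11.7 to 19.2 with PIO, a 2.45-fold rise of the mean (log2 difference 1.39 ± 0.33 SE, adjusted p = 0.0236). The groups overlapped through db/db replicate 6 alone, at 15.6, and without it the difference was 1.75 (adjusted p = 0.000369). Abcb1a, the drug efflux pump, ran from 0.37 through 1.33 to 1.5 in db/db and measured 2.70, 2.87 and 3.47 in the 3 PIO libraries with a value (0.92 ± 0.15 SE, adjusted p = 0.00309). Ugt2b34, a glucuronosyltransferase whose family members resemble each other closely, ran from 1.5 through 9.20 to 12.2 and from 13.1 through 17.3 to 21.7 (1.14, adjusted p = 0.0308). Kcnip2, a subunit of voltage-gated potassium channels, measured 1.76, 1.23, 1.99, 1.67 and 2.14 in db/db and 3, 2.35, 4.54, 3.16 and 5.86 with PIO (0.76 ± 0.14 SE, adjusted p = 0.0076). The receptor tyrosine kinase Epha2, named after its values were seen, rose by 0.66 (adjusted p = 0.0164), the phosphoethanolamine-degrading enzyme Agxt2l1 by 0.92 (adjusted p = 0.0076) and Rassf3 by 0.92 (adjusted p = 0.0165). Rassf3 measured 25.4, 22.4 and, in replicate 6, 9.40 FPKM in db/db, against 32.9 to 36.2 in 5 PIO libraries. Without replicate 6 Rassf3 could not be tested. The close relatives Bex4 and Bex1 rose by 1.33 and 0.74 (adjusted p = 0.0236 and 0.0124), and reads may be shared between them. Dio3os, named for the strand opposite to Dio3, rose by 0.88 (adjusted p = 0.0222). The libraries were unstranded, and whether any of its reads came from Dio3 was not tested.

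Genes of secreted liver-type plasma proteins formed a group among the rises that was noticed after the values were seen and has no test as a group. Apart from Apoc1 these were Fga (fibrinogen alpha chain, 0.95, adjusted p = 0.0437), Trf (transferrin, 0.90, adjusted p = 0.0229), Ttr (transthyretin, 0.79, adjusted p = 0.0464) and Apoh (0.68, adjusted p = 0.0469). Fga ran from 3.41 through 7.33 to 14.6 FPKM in db/db and from 10.5 through 14.8 to 22 with PIO, with overlap. Trf measured 9.24, 6.59, 10.6, 6.43 and 6.97 against 17.8, 14.1, 11.2, 11.9 and 26.2, without overlap. Most of these calls were near the threshold. Of the 12 fits that each left out 1 library, Fga passed in 3, Ttr in 3, Apoh in 2 and Trf in all 12. Alb, the most abundant liver transcript, measured 9.58, 9.74, 8.01 and 3.84 in db/db and between 10.7 and 14.5 in all 6 PIO libraries (0.68, adjusted p = 0.0621). Other liver genes below the filter differed in pattern. Fgb, the fibrinogen beta chain, measured 0.28, 0.54, 0.20, 0.16 and 0.11 FPKM in db/db and ran from 0.28 through 0.66 to 1.21 with PIO, while the apolipoprotein Apoa1 ran from 0.38 through 0.77 to 1.38 and from 0.09 through 1.05 to 1.21. Ahsg had a value in 1 of the 12 libraries (0.03, in db/db replicate 6). Whether RNA of another tissue had a part in these rises was not tested.

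Among the tested genes of the TGF-beta and BMP system, Tgfb1 and Tgfbi fell while Smad7 and Id4 rose. Tgfb1, a cytokine known to drive renal fibrosis, fell with PIO (mm9, chromosome 7, 26472021 to 26490096). It ran from 3.81 through 4.46 to 5.58 FPKM in db/db and from 1.96 through 2.65 to 2.99 with PIO, so that no treated library reached the lowest untreated one. The means were 4.60 ± 0.682 and 2.62 ± 0.365 (SD, n = 6 each), with a log2 difference of -0.63 ± 0.11 (SE, adjusted p = 0.00309). Tgfbi, a matrix protein named for its induction by TGF-beta, measured 4.80, 7.21, 6.47, 4.42 and 6.66 in db/db and 4.18, 3.15, 2.86 and 2.58 with PIO (-0.72, adjusted p = 0.0319). Smad7, which blocks TGF-beta receptors, measured 3.90, 3.66 and 3.43 against 6.60, 6.50 and 7.66 (0.76 ± 0.17 SE, adjusted p = 0.0305). Smad7 rested on 3 values a group and could not be tested without db/db replicate 6.

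Of 52 TGF-beta, BMP and Id genes 21 were tested, 2 rose (Smad7, Id4) and 2 fell (Tgfb1, Tgfbi), with a list median of 0.205 that fell to 0.019 without replicate 6. Above 0 lay 14 of the 21 and below it 7. Id1 and Id3, the other BMP-induced Id genes that could be tested, did not pass. Id1 had 15.2, 14.6, 42.5 and 55.6 FPKM in db/db and 38.0, 59.0, 57.0, 54.3 and 61.7 with PIO (0.95, adjusted p = 0.107). Id3 had 56.1, 36.7 and 87.5 against 111, 98.9 and 127 (0.97, adjusted p = 0.0577). For Id3 the groups did not overlap, with 3 values each.

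**Figure D2:**
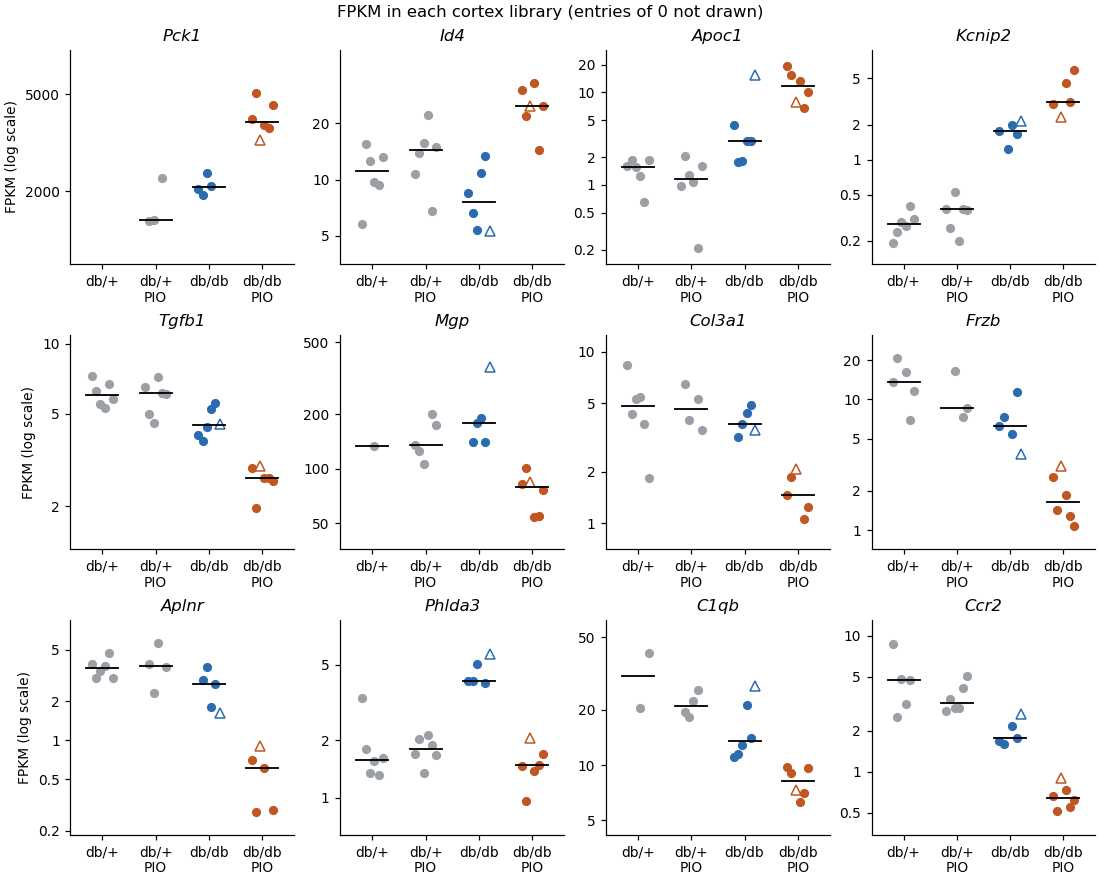
FPKM on a log axis for 12 genes in each library of the 4 cortex groups, with the group median as a black bar and values listed at 0 not drawn. Open triangles are db/db replicate 6 and db/db PIO replicate 3, and the grey points of db/+ cortex show that Tgfb1 was between 5.28 and 7.27 without diabetes.

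Frzb and Mgp had the largest differences of the genes that fell. Frzb, a secreted antagonist of Wnt, measured 6.30, 7.37, 5.41, 11.4 and 3.80 FPKM in db/db and 1.07 at the lowest, 1.64 at the median and 3.08 at the highest with PIO, a 3.65-fold fall of the mean (log2 difference -1.42 ± 0.27 SE, adjusted p = 0.0111). Mgp, the matrix protein that holds back calcification and binds BMPs, measured 140, 179, 190, 141 and, in replicate 6, 365 in db/db, against 53.7 through 79.1 to 101 with PIO (mm9, chromosome 6, 136820957 to 136824326). All treated libraries lay below all untreated ones (-1.36 ± 0.24 SE, adjusted p = 0.00813, and -1.12 without replicate 6). Col3a1, a fibrillar collagen of stroma, measured 3.20, 3.78, 4.38, 4.87 and 3.48 in db/db and 1.47, 1.86, 2.06, 1.06 and 1.25 with PIO, a 2.56-fold fall (-0.97 ± 0.23 SE, adjusted p = 0.0284).

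Of 69 extracellular matrix genes 32 were tested and 4 fell (Col3a1, Mgp and the matrix proteinases Mmp2 and Mmp12), none rose, 25 of 32 lay below 0, beside 2231 of all 3890 genes, and the median was -0.282 against -0.045. Mmp2 differed by -0.56 (adjusted p = 0.044) with overlapping groups, its lowest value being 0.04 FPKM in PIO replicate 3. Mmp12, a macrophage elastase, differed by -0.43 (adjusted p = 0.0469). Mmp2 and Mmp12 each passed in 2 of the 12 fits that left out 1 library. Col1a1, the main chain of type I collagen, lay between 0.70 and 2.31 in db/db and between 0.67 and 1.44 with PIO (-0.46, adjusted p = 0.253), and the small proteoglycan Dcn between 7.02 and 9.72 and between 6.22 and 12.9 (0.20, adjusted p = 0.463). The connective tissue growth factor Ctgf differed by -0.50 (adjusted p = 0.0699). Without db/db replicate 6 a count of 6 of 30 matrix genes fell, among them Col15a1 and Emilin1, where 164 of all 3495 genes fell.

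Of the stromal markers tested 10 of 12, and of the vascular markers 9 of 11, lay below 0 with PIO, beside 2231 of all 3890 genes. In bulk cortex, fewer cells of a type and less RNA per cell cannot be told apart. Of 21 markers of fibroblasts and stroma 12 were tested and 3 fell (Cd34, Vim, Cygb), where 2.67% of all genes fell, with a median of -0.481 against -0.045. Cd34, carried by stromal and endothelial cells, measured 16.5, 19.8, 21.7 and 17.9 in db/db and 9.71 through 10.7 to 13.2 with PIO (-0.74 ± 0.15 SE, adjusted p = 0.0164). Vim, the intermediate filament of mesenchymal cells and of injured tubules, ran from 14.2 through 16.4 to 20.1 and measured 9.88, 10.1, 13.3, 12.5 and 11.8 (-0.49, adjusted p = 0.0348). The oxygen-binding Cygb of interstitial fibroblasts differed by -0.72 (adjusted p = 0.0308). Acta2, the actin of smooth muscle and myofibroblasts, had a difference of -0.09 (adjusted p = 0.808) within the spread of the libraries.

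The summed FPKM of the 7 stromal markers with a value in all 12 libraries ran from 40.2 through 44.3 to 102 in db/db and from 24.1 through 30.4 to 40.9 with PIO. The highest db/db library was replicate 6, and without it the highest was 53.01. Of 25 markers of endothelium and vessel wall 11 were tested, 9 lay below 0 and 2 fell (Mgp and the smooth muscle protein Tagln, -0.46, adjusted p = 0.0469), with a median of -0.367, while Eng and Robo4 were listed at 0 in all 12. Tagln did not pass without replicate 6 (adjusted p = 0.0571).

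A ligand and its receptor fell together in the apelin system, which acts on vessel growth and tone. The receptor Aplnr measured 2.92, 3.67, 1.82, 2.72 and 1.63 FPKM in db/db and 0.70, 0.28, 0.90, 0.61 and 0.29 with PIO, a 4.59-fold fall without overlap (mm9, chromosome 2, 84976517 to 84980079; log2 difference -1.18 ± 0.18 SE, adjusted p = 0.00274). The peptide gene Apln was named after its values were seen. It ran from 0.76 through 1.78 to 3.05 in db/db and from 0.45 through 0.76 to 1.00 with PIO (-0.67 ± 0.17 SE, adjusted p = 0.0315), with overlap. Apln passed in 5 of 12 fits that left out 1 library and Aplnr in all 12. Other endothelial genes among the falls, named after their values were seen, were the endothelial factor Sox18 (-0.71), the lectin-family protein Clec14a (-0.44), the protocadherin Pcdh12 (-0.53), the lumen-forming Rasip1 (-0.57) and the repressor Bcl6b (-0.59). Of the 12 fits that left out 1 library, Rasip1 passed in 1, Sox18 in 3, Clec14a in 4, Bcl6b in 6 and Pcdh12 in all 12. Named in the same way, stromal genes that fell were Mfap2 of elastic microfibrils (-0.53), the collagen chaperone Fkbp10 (-0.41), the proteinase Mmp11 (-0.56), the mesenchymal factor Snai2 (-0.49), Srpx2 (-0.64) and Mxra8 (-0.62). Fkbp10 passed in 4 of 12 such fits, Mmp11 in 6, Mxra8 in 7, and Snai2 and Srpx2 in all 12. Mfap2 passed in 4 of the 9 fits in which it could be tested.

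Markers of macrophages and other myeloid cells all lay lower with PIO. Of 39 such genes 25 were tested, 25 of 25 lay below 0 and 5 fell (C1qa, C1qb, Ccr2, Cd14 and Lyz2), with a median of -0.460 against -0.045 for all genes tested. At an unadjusted p of 0.05, 17 of the 25 passed, beside 868 of all 3890 genes. Without db/db replicate 6 the call was made for 7 of 25, where 164 of all 3495 genes fell. Ccr2, the chemokine receptor by which monocytes enter tissue, measured 1.68, 1.59, 2.16, 1.77 and 2.66 FPKM in db/db and ran from 0.52 through 0.64 to 0.90 with PIO, a 2.97-fold fall (-0.83 ± 0.19 SE, adjusted p = 0.0215). It was called whichever library was left out. C1qb, a chain of the complement starter C1q made by resident macrophages, ran from 11.1 through 13.5 to 27.1 and from 6.26 through 8.13 to 9.75 (-0.86 ± 0.21 SE, adjusted p = 0.0319), and C1qa from 7.81 through 12.7 to 21.8 and from 5.40 through 7.27 to 8.59 (-0.78, adjusted p = 0.0475). Treated C1qb values all lay below the untreated ones, while those of C1qa overlapped. The endotoxin co-receptor Cd14 differed by -0.76 (adjusted p = 0.0323). Lyz2, the macrophage lysozyme, whose near-identical copy Lyz1 could share its reads, differed by -1.05 (adjusted p = 0.0464). In untreated db/+ cortex the means were 27.0 FPKM for C1qa, 42.9 for Lyz2, 4.77 for Ccr2 and 5.29 for Cd14. Those of untreated db/db were lower (13.5, 20.8, 1.97 and 4.70), and those of db/db PIO lower again (7.05, 10.1, 0.665 and 2.385). The difference between untreated db/db and db/+ was not tested here.

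Not every call in this group was firm. C1qa and Lyz2 lost theirs without replicate 6 (adjusted p = 0.0637 and 0.0646), and C1qa passed in 2 of 12 fits that left out 1 library. Members that did not pass with all libraries included the microglia and macrophage gene Aif1 (-0.72, adjusted p = 0.0621), the F4/80 gene Emr1 (-0.46, adjusted p = 0.0538) and the dendritic integrin Itgax (-0.02, adjusted p = 0.886). Cyba and Itgam were listed at 0 in all 12. The summed FPKM of the 11 members with a value in every library ran from 26.0 through 36.4 to 60.0 in db/db and from 16.9 through 21.1 to 24.1 with PIO, without overlap, also without db/db replicate 6 (26.0 to 49.3). The called C1qa, C1qb and Cd14 made up most of this sum, and the other 8 members summed to 3.44 through 5.12 to 7.09 in db/db and 2.32 through 3.44 to 4.22 with PIO, with overlap. The part that numbers of these cells had in the falls was not tested. The same sum over 9 lymphocyte markers ran from 10.8 to 48.0 and from 5.76 to 15.5, with overlap, and none of 12 tested T, B and plasma cell genes passed (median -0.238, 5 lower at an unadjusted p of 0.05). Of 44 interferon-stimulated genes 21 were tested and 1 fell, Ifi27l2a, with 10.6, 16.7 and 10.7 against 5.65, 4.55 and 5.12 (-1.14, adjusted p = 0.0327). The complement list (6 tested) and MHC class II genes (4 tested) had none that passed, and 1 each at an unadjusted p of 0.05.

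**Figure D3:**
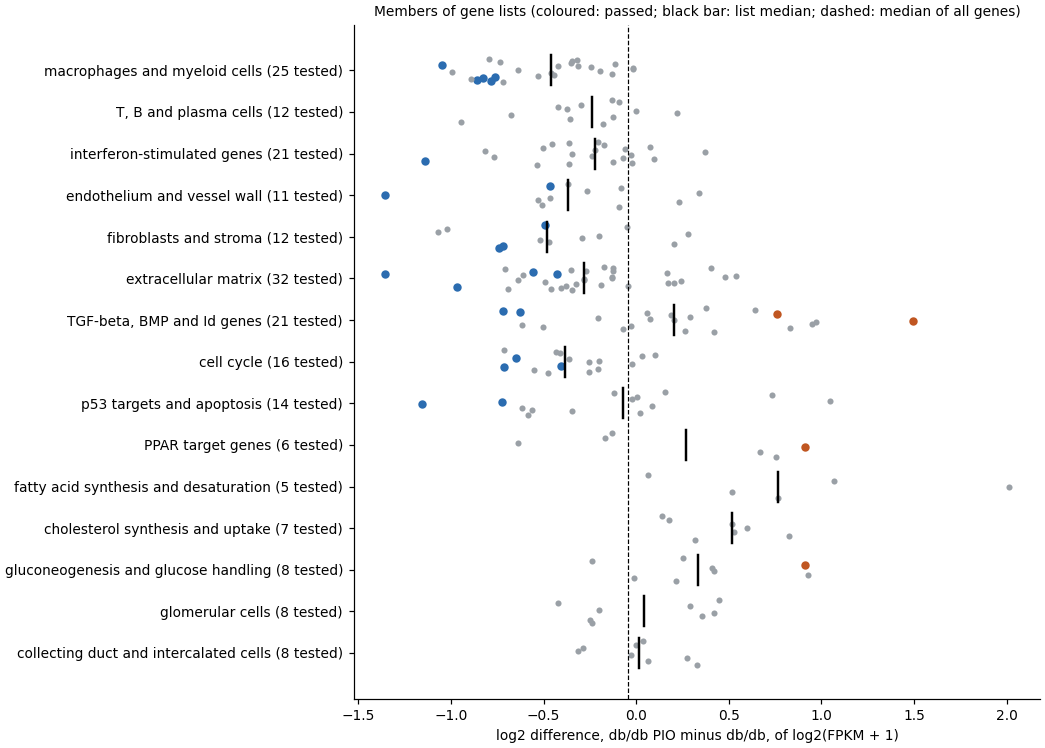
Log2 differences between db/db PIO and db/db cortex for the tested members of 15 gene lists, 1 point per gene, coloured where the gene passed. Black bars are the list medians and the dashed line is the median of all 3890 genes (-0.045), and all 25 macrophage and myeloid genes lie below 0.

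No tubular marker that could be tested passed. Kap had the widest spread, 11764 through 17838 to 54832 FPKM in db/db and 4408 through 9175 to 14125 with PIO (-1.17 ± 0.37 SE, adjusted p = 0.0865). Of 29 collecting duct and intercalated cell genes 8 were tested and none passed, also at an unadjusted p of 0.05 (median 0.017, and -0.13 with 6 of 8 below 0 without db/db replicate 6), and of 23 glomerular genes 8 were tested and none passed (median 0.043, 2 higher and 1 lower at that p). Without replicate 6 the median of all genes tested was -0.101, with 2428 of 3495 below 0. Of 24 regulators of sodium and water transport 2 were tested and none passed. The sodium-retaining kinase Sgk1, in particular, measured 57.1, 69.4 and 53.9 FPKM in db/db and 44.4 through 132 to 188 with PIO (0.90, adjusted p = 0.259).

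Of 37 cell cycle genes 16 were tested, 14 lay below 0 (2231 of 3890 over all genes) and 3 fell (2.67% over all genes), with a median of -0.385 against -0.045. These were Cdca3 (-0.71, adjusted p = 0.0156), which helps cells enter mitosis, Cdca8 of the chromosomal passenger complex (-0.41, adjusted p = 0.0464) and Mcm6 of the replicative helicase (-0.65, adjusted p = 0.0284). Cdca3 measured 1.12, 1.46, 2.80 and 2.37 FPKM in db/db and ran from 0.37 through 0.765 to 1.15 with PIO, and the groups just overlapped. Cdca8 lay between 0.48 and 1.23 FPKM in db/db and between 0.12 and 0.62 with PIO, with overlap. It passed in 3 of 12 fits that left out 1 library. Mcm6 had 3 db/db values (6.14, 5.43 and 4.86) and passed in 7 of the 9 such fits in which it could be tested. Without db/db replicate 6 Mcm6 could not be tested. Of 28 p53 targets and apoptosis genes 14 were tested, 2 fell (Phlda3, Plk2), and 6 lay above and 8 below 0, so that the median of -0.072 was near that of all genes. At an unadjusted p of 0.05, 2 were higher and 4 lower, and without replicate 6 the median was -0.18, against -0.101 for all genes.

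Phlda3, a p53 target that restrains AKT, had the smallest adjusted p of all genes tested (mm9, chromosome 1, 137662696 to 137665713). It measured 4.10, 4.08, 5.04, 4.02 and 5.68 FPKM in db/db and 0.96 at the lowest, 1.48 at the median and 2.05 at the highest with PIO. The gap between the highest treated and the lowest untreated library was wider than the range within either group. The means were 4.58 ± 0.744 (SD, n = 5) and 1.51 ± 0.361 (SD, n = 6), a 3.04-fold fall, with a log2 difference of -1.16 ± 0.14 (SE, adjusted p = 0.000121). The stress kinase Plk2 ran from 2.72 through 4.10 to 5.87 and from 1.58 through 1.88 to 2.89 (-0.72, adjusted p = 0.021). The arrest gene Cdkn1a differed by -0.56 (adjusted p = 0.333) and the stress cytokine Gdf15 by -0.62 (adjusted p = 0.101). Of 36 genes of tubular injury 13 were tested, Fga rose and Vim fell, and the median was -0.121 (-0.307 without replicate 6, against -0.101 for all genes). The injury marker Havcr1 was listed at 0 in all 12 libraries.

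Among the remaining large falls, Stbd1, which tethers glycogen for breakdown, ran from 3.13 through 4.03 to 5.58 and from 1.40 through 1.73 to 2.34 FPKM (-0.90 ± 0.13 SE, adjusted p = 0.00242). Fabp5, a fatty acid carrier that can deliver ligands to PPARD, ran from 13.3 through 15.6 to 44.6 and from 5.28 through 9.38 to 10.9 (-1.09, adjusted p = 0.0156). Dio1, which converts thyroxine to its active form, measured 11.1, 12.3 and 14.2 against 5.84, 5.97, 7.72, 3.57 and 4.25 (-1.10, adjusted p = 0.0236). None of these 3 overlapped between groups, and the highest Fabp5 value was that of db/db replicate 6. Other large falls were those of the actin-associated Marcksl1 (-1.15, adjusted p = 0.0076), the myosin phosphatase inhibitor Ppp1r14a (-1.06, adjusted p = 0.0422), Higd1b of pericytes (-1.02, adjusted p = 0.0236), Pafah1b3 (-0.93, adjusted p = 0.0236) and Tmem88, a Wnt inhibitor (-0.87, adjusted p = 0.0236).

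For the same drug in db/+ cortex few genes passed the test, which does not show that the others did not respond. Of 4004 genes tested 1 passed (0.025%), the retinol-binding protein Rbp7, and 103 passed an unadjusted p of 0.05. Rbp7 did not pass in db/db cortex (log2 difference 0.24, adjusted p = 0.503). Of the 126 genes called in db/db, 114 could be tested in db/+, and 67 of them (58.8%) had the same sign there, against 57.0% of all 3228 genes tested in both. The 93 genes that fell had a median of -0.58 in db/db and of -0.03 in db/+, and the 21 that rose a median of 0.88 in db/db and of 0.07 in db/+. The db/db medians are those by which the genes were called.

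When the difference of the responses was tested itself, 1 of 3228 genes passed (0.031%), and 292 had an unadjusted p under 0.05. That gene was Phlda3. In db/+ cortex it ran from 1.32 to 3.34 FPKM without and from 1.35 to 2.14 with PIO, a response of 0.01, so that the responses differed by -1.17 ± 0.19 (SE, adjusted p = 0.0138). The untreated db/db libraries lay above all 12 db/+ libraries, and the treated ones overlapped them. For all other genes called, the difference from the db/+ response did not pass, which does not show that the responses were alike. Tgfb1 had 5.28 to 7.27 FPKM in db/+ and 4.55 to 7.24 in db/+ PIO, above every db/db PIO library and overlapping only the upper end of untreated db/db, with a difference of responses of -0.58 (adjusted p = 0.176). Kcnip2 lay between 0.19 and 0.53 in both db/+ groups, below every db/db library (adjusted p of the difference 0.221). Pck1 was listed at 0 in all 6 db/+ libraries and had 1513, 1528 and 2271 in 3 db/+ PIO libraries, so that its db/+ response could not be tested. Of the 5 macrophage genes that fell, 4 could be tested in db/+, where Lyz2 differed by -0.49 (unadjusted p = 0.0837), Cd14 by -0.45 (unadjusted p = 0.0297), C1qa by -0.42 (unadjusted p = 0.0923) and Ccr2 by -0.27 (unadjusted p = 0.16), none passing after adjustment.

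**Figure D4:**
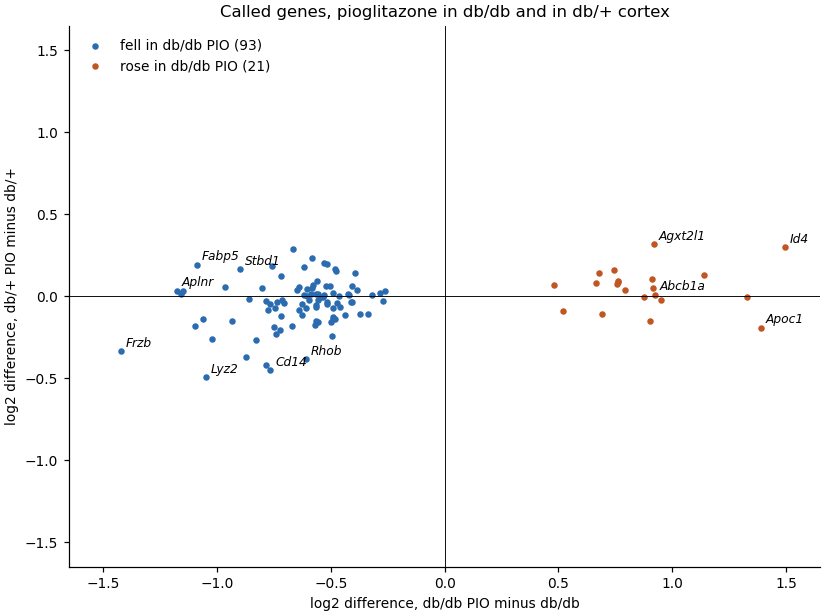
Response to PIO in db/db cortex (horizontal axis) and in db/+ cortex (vertical axis), both as log2(FPKM + 1) differences, for the 93 genes that fell and the 21 that rose and could be tested in both. The genes spread around 0 on the db/+ axis, with medians of -0.03 and 0.07.

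Leaving out db/db replicate 6 raised the number of genes called. With 5 db/db libraries 189 of 3495 genes passed (5.41%), 25 higher and 164 lower. Of the 126 genes 121 could still be tested, all 121 kept their sign and 106 stayed called, and 83 further genes passed. Among the genes named above, Fga, Apoh, Ppp1r14a, Cdca8, Sox18, Rasip1, Tagln, C1qa and Lyz2 lost their call, with adjusted p-values between 0.0548 (Fga) and 0.0756 (Cdca8). The median difference of all genes moved from -0.045 to -0.101. Over the 12 fits that each left out 1 library the sign held for all 126 genes, but the call held in all of its 12 fits for 36 genes and in at least 6 for 86. The count of genes called was lowest without db/db replicate 4 (55). With each 0 entered as a value of 0, only Creg1 and Cyp51 passed. Creg1, a secreted glycoprotein, was listed at 0 in 5 of 6 db/db libraries, and its single value there (44.4) lay within the 37.7 to 50.2 of the 6 PIO libraries.

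**Figure D5:**
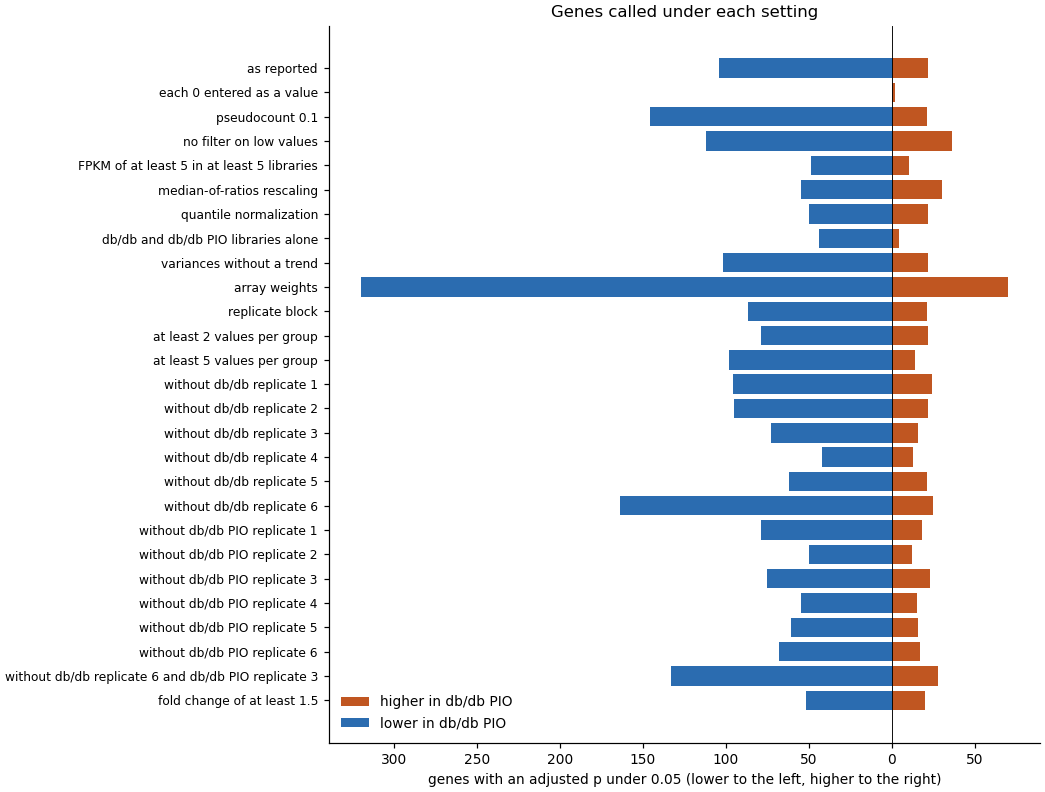
Number of genes called lower (left) and higher (right) with PIO in db/db cortex under each setting. The count ran from 2 with zeros as values to 390 with array weights, and falls outnumbered rises under every setting except zeros as values.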

How the data were processed

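RNA of 24 cortex libraries was sequenced after TruSeq mRNA v2 preparation, which does not keep strand, as paired-end reads on a HiSeq. The authors aligned reads with TopHat and Bowtie to the NCBI 37 (mm9) mouse reference and deposited 1 FPKM per gene symbol and library, computed with Cufflinks. No versions are given for these programs in the sources used here. Their DEGs came from Cuffdiff, which needs reads and was not repeated. The deposited FPKM carry no read counts per gene or library, so no counting interval is given.

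FPKM were used as deposited on the log2(FPKM + 1) scale, an exact 0 being missing. Genes needed at least 1 FPKM in at least 5 of the 24 libraries and at least 3 values in each group. All 4 cortex groups were fitted together with limma 3.58.1 (R 4.3.3), with a trend in the variance, without a replicate block, and with Benjamini-Hochberg adjustment at 0.05. Library values were compared by exact permutation tests (scipy 1.17.1). The code was tested on simulated data. Coordinates are mm9 for 120 of the 126 called genes.

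The members and gene lists were chosen with earlier results of these data known. Named genes were the 15 largest rises and the 15 largest falls by log2 difference among called genes, called members of the lists, the 3 PPAR genes and the tested PPAR targets. Others were named after their values were seen and are said to be so or did not pass. Libraries of db/db and db/db PIO with equal replicate numbers did not deviate alike from their group means (correlations from -0.14 to 0.06 over 876 genes). Alternatives were other filters, scalings, weights, pseudocounts, a replicate block, zeros as values and leaving out each library.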

Additional observations from a re-analysis of the deposited data

Results flagged for a closer look

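Of 87 groups of values examined, 9 had a library set apart from the rest by Dixon's criterion, where chance gives about 1 in 20. In 6 of them the library was db/db replicate 6. Its FPKM sum was 601310, with the next library at 246975. It was the highest db/db library for Apoc1 (15.56 FPKM, next 4.47), Mgp (365.11, next 189.71), Fabp5 (44.63, next 21.75) and Tmem88 (12.3, next 6.43), and the lowest for Ugt2b34 (1.5, next 8.41). Apoc1, Ugt2b34, Mgp, Fabp5 and Tmem88 passed with and without this library.

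In db/db PIO, replicate 3 had 9533 genes above 0 (next 7974) and the highest Cd14 value (3.88 FPKM, next 2.55), and replicate 1 the highest Tmem88 value (3.74, next 2.85).

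The response of Phlda3 to PIO differed between db/db and db/+ cortex by -1.17 ± 0.19 (SE) on the log2(FPKM + 1) scale (limma interaction, adjusted p = 0.0138). All 6 treated db/db libraries lay below the 5 untreated ones, while both db/+ groups overlapped.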

How the results depend on the processing

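Of the 46 named genes that passed, 44 stayed called with a pseudocount of 0.1, 45 without a trend in the variance and 36 without a filter. After median-of-ratios rescaling 36 stayed called, after quantile normalization 27, and with the db/db and db/db PIO libraries alone 15. None of these settings changed a sign. With zeros as values 0 of the 46 stayed called and 5 changed sign. The 126 calls (22 higher, 104 lower) became 59 (10 and 49) at a minimum of 5 FPKM, 72 (22 and 50) after quantile normalization, 48 (4 and 44) with the db/db and db/db PIO libraries alone, of which 43 were among the 126, 390 (70 and 320) with array weights and 72 (20 and 52) at a fold of at least 1.5. Median-of-ratios rescaling gave 55 lower genes, no filter 36 higher and at least 5 values per group 14 higher.

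Leaving out 1 library at a time gave 55 (without db/db 4) to 189 (without db/db 6) calls, 12 to 25 higher and 42 to 164 lower, and 83, 62, 70 and 77 calls without db/db 5 and db/db PIO 2, 4 and 5. The test of the difference between responses gave 1 to 11 genes, 11 without db/+ 1 or db/db 6 and 9 without db/+ PIO 3. Without db/db 6 the differences of the FPKM sum (PIO minus db/db, -52524.83) and of the genes above 0 (-74.0) turned to 10599.8 and 41.67.

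The cause of these changes was not tested. Without db/db 6, members that rose became 1 for cholesterol (Insig1), 2 for gluconeogenesis, 0 for tubular injury, 1 for p53 targets (Plk3) and 1 for the clock (Nfil3), and members that fell 2 for tubular injury and 1 for lysosome. Of all 3495 genes in that fit 25 rose and 164 fell. An added setting, chosen after seeing the data, left out both db/db 6 and PIO 3 and gave 161 calls of 3058 genes (28 and 133), with the same sign in 115 of 115 genes tested. With zeros as values 2 genes passed, 2 higher and 0 lower, none of the 126, and 112 of the 126 kept their sign. Of the named genes Bex4 (-0.352), Abcb1a (-0.077), Dio1 (0.338), Cd34 (0.699) and Mcm6 (0.696) turned, the lists had 0 members that rose or fell except 1 each for PPAR targets (Creg1) and for cholesterol and cytochrome P450 genes (Cyp51 in both), and the difference of responses had 0 genes.

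With a replicate block 108 genes were called and 3 for the difference of responses. No db/db library correlated best with the db/db PIO library of its own number. The methods describe separate mice in these groups, so the correlations could not test for a shared animal. FPKM without read counts give no counting error for low genes.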
